A study of Mus musculus with 2 samples.

Results

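Complement transcripts were examined in tumors of the mouse prostate cancer line RM-1 through 9 genes chosen by name, out of 32285 genes counted. The 9 genes were C1qa, C1qb, C1qc, C3, C4b, Cfb, Cfp, C3ar1 and C5ar1. The cells came from 1 vehicle-treated mouse (control) and 1 mouse treated with enzalutamide (ENZ), an androgen receptor antagonist, with 1 droplet-based scRNA-seq library each. Both tumors were of RM-1 cells and were labelled wild type. The study's methods describe injection into the prostate of C57BL/6 mice for its treatment groups, and subcutaneous tumors elsewhere. They do not state which model gave the 2 sequenced tumors. The age of the mice is not given in the labels. Immune cells were enriched during sorting, so the number of cells of a class is not its share of the tumor. The control library held 170830346 UMIs (unique molecular identifiers, each counting 1 captured transcript) and the ENZ library 162030149. With 1 mouse and 1 library per condition, no test between conditions exists, and treatment cannot be told apart from differences between mice or libraries. Every interval below is a 95% interval for counting error only.

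Barcodes with at least 1000 UMIs and at most 20% mitochondrial UMIs were kept, which left 12253 control and 10271 ENZ barcodes. Only 40 barcode sequences of at least 1000 UMIs occurred in both libraries. Macrophages were gated as cells with Apoe and either Mrc1 or Mmp12, together with further macrophage markers, and numbered 1258 (control) and 890 (ENZ). Their median depth was 8065 and 6582 UMIs, respectively. Gates on other markers gave 1186 and 1238 monocytes, 1174 and 420 neutrophils, 1912 and 2566 cancer cells and 67 and 54 fibroblasts, control first. T cells (419 and 572), NK cells (282 and 127) and dendritic cells (104 and 76) served as further classes. None of the 9 genes was used in a gate. The gates left 44.4% of control and 39.7% of ENZ barcodes without a class. Cells of the cancer gate carried the keratins Krt8 (640 and 650 CPM), Krt18 and Krt19, but the epithelial markers Epcam (5.13 and 4.18 CPM) and Cdh1 (1.34 and 1.09 CPM) were near 0 in them, as were Krt7 and Cldn4. CPM is the number of UMIs of a gene in 1000000 UMIs of all genes, summed over the cells of a class in a library. All 7 further macrophage markers were above 0 in the macrophages of both libraries and summed to 1218 and 1253 CPM, against 576 and 650 CPM in monocytes and 203 and 181 CPM in neutrophils. Because these markers are part of the macrophage gate, a high sum there is built in and gives no separate support for the class.

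Complement is a cascade of plasma and tissue proteins that tags particles for uptake and can pierce membranes. C1q, a protein built from the chains A, B and C, starts the classical path by binding antibodies, dying cells or other surfaces, and C4 is cleaved next. C3 is the component on which all paths converge; factor B, from Cfb, and properdin, from Cfp, build and stabilize the C3-cleaving enzyme of the alternative path. The receptors C3aR and C5aR1 read the small fragments C3a and C5a and are known from myeloid cells. Most plasma complement comes from the liver, whereas C1q is made largely by macrophages and related cells in tissues.

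The genes for the C1q chains lie side by side on chromosome 4 of GRCm38, all on the minus strand, in the GENCODE M21 annotation. C1qb (ENSMUSG00000036905) spans 136880129 to 136886187, C1qc (ENSMUSG00000036896) 136889804 to 136893065 and C1qa (ENSMUSG00000036887) 136895917 to 136898803. Because these neighbours had like patterns across classes, the 250 bases before the RefSeq start sites of C1qb and C1qc (build GRCm38.p6) are shown, with capitals marking GAGGAA, letters bound by factors of the ETS family that myeloid cells use, or its reverse complement TTCCTC. They cover chr4:136886201-136886450 and chr4:136892915-136893164 and are written 5′ to 3′ on the strand of the gene.
C1qb: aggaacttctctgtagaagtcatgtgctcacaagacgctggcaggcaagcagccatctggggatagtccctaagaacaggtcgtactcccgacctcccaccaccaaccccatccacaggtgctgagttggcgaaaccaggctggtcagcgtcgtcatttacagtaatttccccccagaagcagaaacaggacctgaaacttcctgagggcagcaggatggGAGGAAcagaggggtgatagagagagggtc
C1qc: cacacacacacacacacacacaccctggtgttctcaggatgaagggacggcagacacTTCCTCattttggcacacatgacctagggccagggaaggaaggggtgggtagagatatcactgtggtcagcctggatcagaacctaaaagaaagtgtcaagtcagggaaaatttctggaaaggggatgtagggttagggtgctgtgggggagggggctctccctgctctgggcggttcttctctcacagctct
The match began 30 bases before the start site in C1qb and 193 bases before it in C1qc, on opposite strands. The annotations place the starts differently: the GENCODE span of C1qc begins 151 bases further upstream, so that 151 of the 250 bases shown lie within it. Counted from the GENCODE starts, the matches began 43 bases (C1qb) and 42 bases (C1qc) upstream. Of 32544 RefSeq promoters of 300 bases, from 250 before to 50 after the start, 28.1% held GAGGAA on either strand, so a match is common. Of the other members with a listed promoter, Cfp had 2 matches after its start, and C3, C3ar1 and C5ar1 had none. Promoters were matched for 6 of the 9 members.

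The members fell into groups by the class that held their highest level. C1qa, C1qb, C1qc, Cfp and C3ar1 were highest in macrophages in both libraries. C3, C4b and Cfb were highest in fibroblasts and C5ar1 in neutrophils, also in both, so that as a set these are genes of several tumor cell classes and not of macrophages alone. In each of these cases the interval of the ratio to the next class lay above 1. The next class was the monocytes for the C1q genes, Cfp and C3ar1, the macrophages for C4b, Cfb and C5ar1, and the neutrophils for C3. Neutrophils and monocytes did not differ beyond counting error in their C3 level in the control library (1.07, 0.918 to 1.25), and neither did neutrophils and dendritic cells in their Cfp level (1.04, 0.744 to 1.47).

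**Figure D1:**
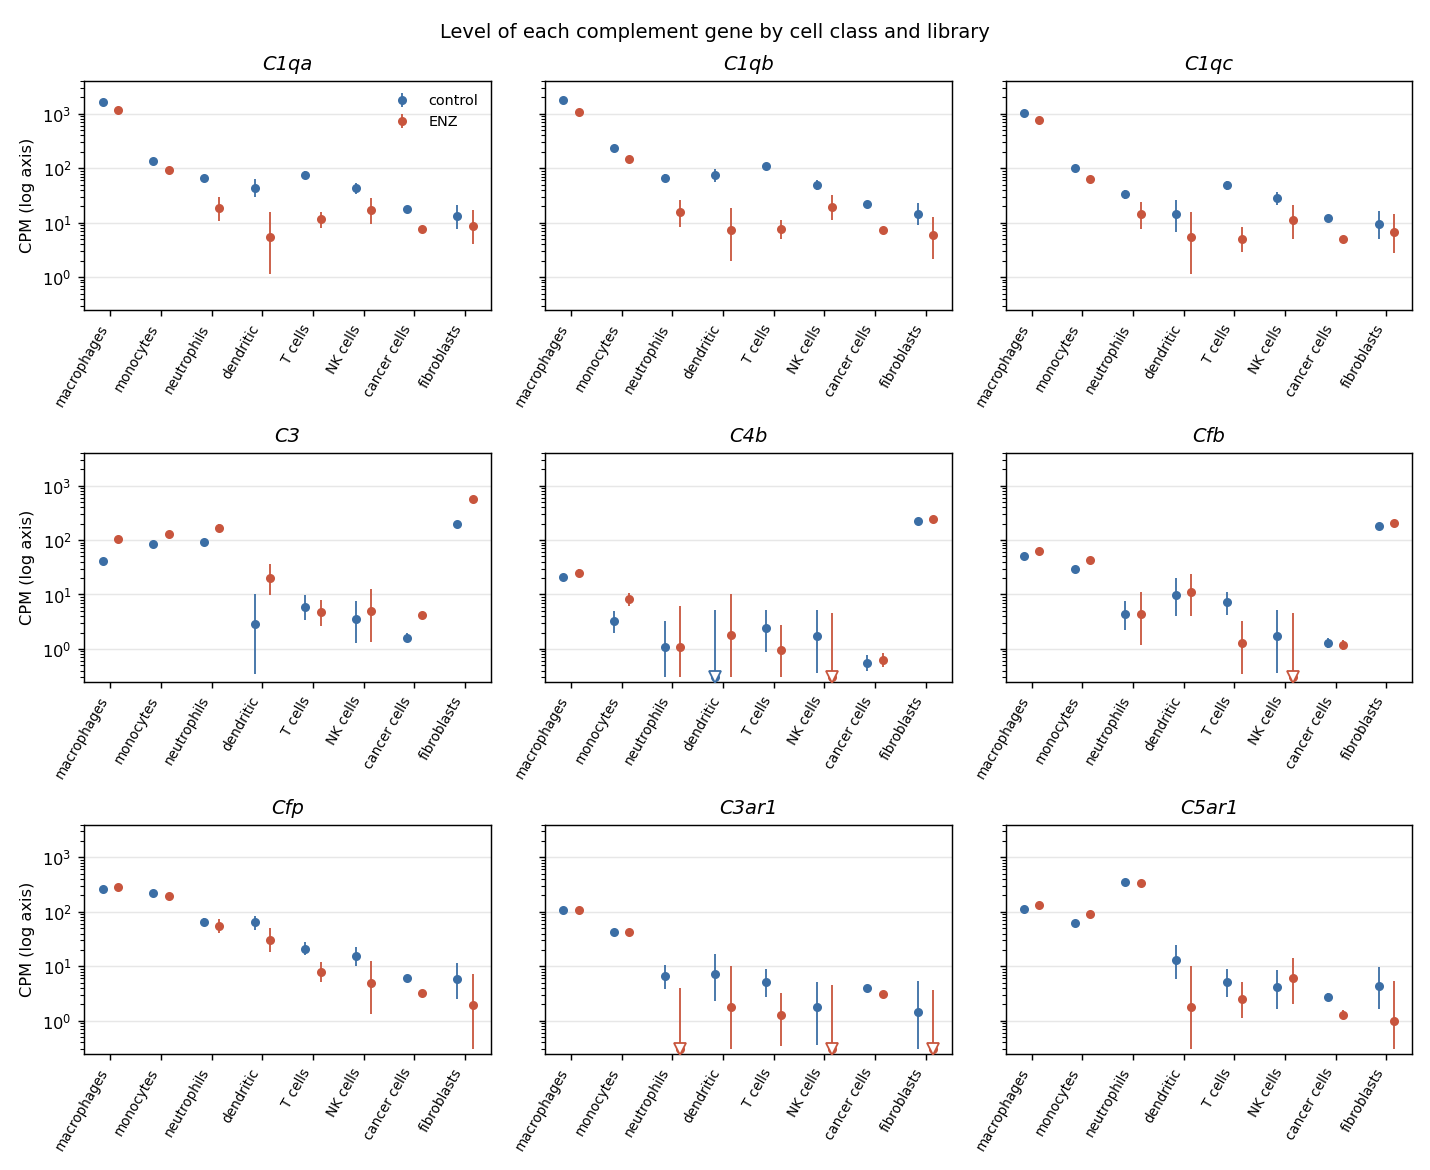
Level of each of the 9 genes in 8 cell classes (x axis) as CPM on a log axis, with 95% Poisson intervals, in the control (blue) and ENZ (red) library; open triangles at the bottom mark classes with 0 UMIs. The C1q genes reach 1021 CPM or more in control macrophages, C4b and Cfb stand out in fibroblasts, and C5ar1 in neutrophils.

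C1q stood out for its level and for its concentration in few cells. The 3 chains together took 4506 CPM (4468 to 4544) in control macrophages and 3040 CPM (2998 to 3082) in ENZ macrophages. In monocytes they took 477 CPM (460 to 495) and 302 CPM (289 to 316). Macrophages were thus 9.44 times (9.10 to 9.80) the level of monocytes in the control library and 10.1 times (9.61 to 10.5) in the ENZ library. Of all C1q UMIs in kept barcodes, 69.5% lay in control macrophages and 69.6% in ENZ macrophages, although these cells held 7.76% and 4.54% of the UMIs of all genes. Barcodes without a class held 11.3% and 10.4% of the C1q UMIs, and barcodes that passed markers of more than 1 lineage held 9.11% and 6.94%.

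C1q UMIs outside macrophages were set beside the free RNA of each library. Barcodes with at most 100 UMIs, which carry free RNA, had C1q at 853 CPM (control) and 450 CPM (ENZ). T cells, a class that should lack C1q, had 234 and 24.3 CPM, neutrophils 165 and 48.3 CPM, cancer cells 52.2 and 19.7 CPM and fibroblasts 37.2 and 21.7 CPM. When each cell was thinned to 1000 UMIs, any C1q UMI was found in 78.1% (75.7% to 80.3%) of control and 61.3% (58.1% to 64.6%) of ENZ macrophages, against 9.07% and 3.32% of T cells. The shares without thinning were 88.1% and 76.6% of macrophages and 26.3% and 11.2% of T cells, whose median depth was 4225 and 4398 UMIs. Monocytes had any C1q UMI in 19.6% and 12.9% of thinned cells (39.0% and 27.2% unthinned), above the T cells of their library. Neutrophils had it in 11.1% and 5.0% (21.5% and 10.0% unthinned), with intervals that overlapped those of the T cells. Their C1q level was below that of the T cells in the control library (165 CPM, 150 to 181, against 234 CPM, 215 to 254) and above it in the ENZ library (48.3 CPM, 35.1 to 64.8, from 44 UMIs, against 24.3 CPM, 19.1 to 30.4). Expression and free RNA were not told apart in neutrophils.

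**Figure D2:**
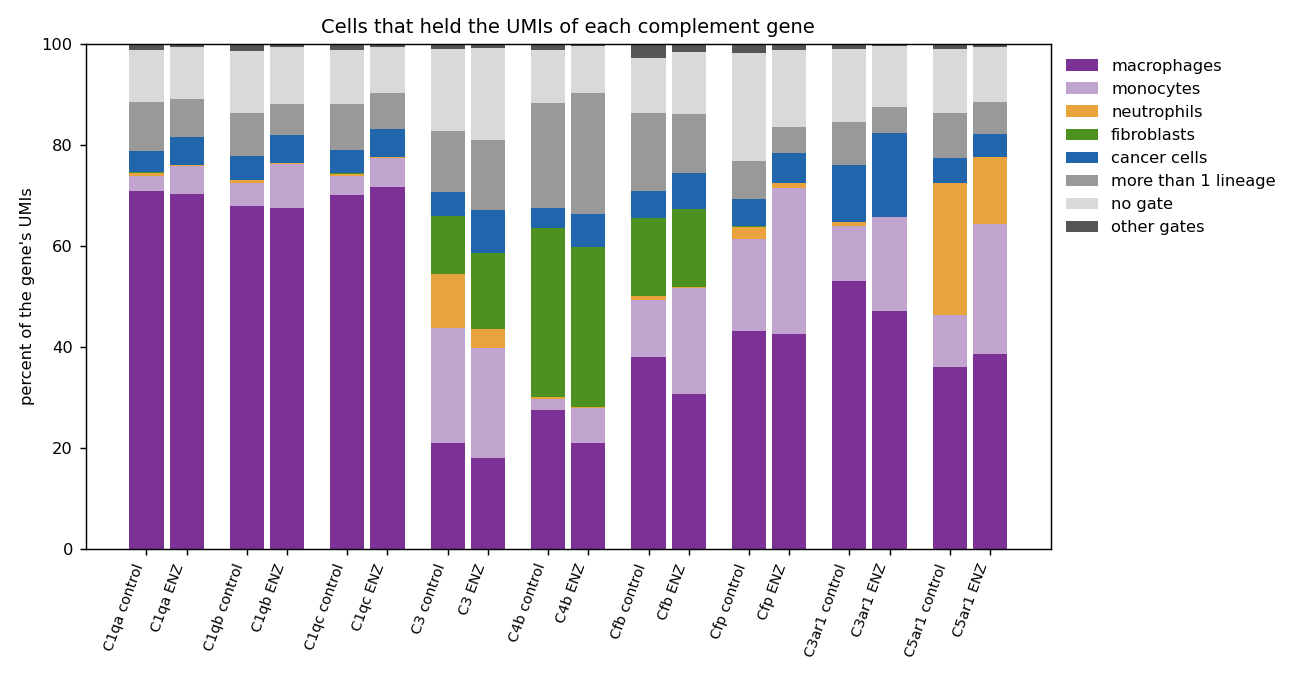
Percent of each gene's UMIs (y axis) held by each class among kept barcodes, with 1 bar per gene and library. Macrophages hold 67.5% or more of the UMIs of each C1q chain. In control and ENZ, fibroblasts hold 33.5% and 31.8% of C4b, monocytes 22.7% and 21.7% of C3 and neutrophils 26.1% and 13.3% of C5ar1.

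Each of the 3 C1q chains was lower in ENZ than in control macrophages, by unequal amounts. C1qa, for chain A, was at 1658 CPM (1635 to 1681) in control and 1161 CPM (1135 to 1187) in ENZ macrophages, a ratio of 0.700 (0.682 to 0.719). C1qb, for chain B, was at 1828 CPM (1804 to 1852) and 1098 CPM (1073 to 1123), a ratio of 0.601 (0.585 to 0.617). C1qc, for chain C, was at 1021 CPM (1003 to 1039) and 781 CPM (760 to 803), a ratio of 0.765 (0.741 to 0.791). The intervals of the 3 ratios did not overlap one another, and C1qb differed most. C1qb accordingly made up 40.6% of the C1q UMIs of control and 36.1% of those of ENZ macrophages, while C1qa went from 36.8% to 38.2% and C1qc from 22.6% to 25.7%. In the free RNA, C1qb was 46.0% (control) and 36.5% (ENZ) of the C1q UMIs. In monocytes C1qb was 49.9% and 48.5%.

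The sum of the chains had a ratio of 0.675 (0.664 to 0.686) in macrophages, or -0.57 on the log2 scale, beside a median of 0.09 over the 3459 genes tested there. A gene was tested in a class if it reached 50 CPM in either library, and differences of 1.5 times or more were counted in place of a test. In macrophages 8 of the 9 genes were tested, all but C4b. Of these, 1 was higher in the ENZ library (C3), where 4.65% of all tested genes were, and 1 was lower (C1qb), where 3.76% were. C3 reached the minimum of 50 CPM only in the ENZ library (40.7 and 106 CPM), so that it could be counted only as higher. The median log2 ratio of the 8 was 0.06. In monocytes 6 were tested, with 1 higher (C3, against 4.86% of 3228 genes, a call lost under 4 of 12 alternatives, the lowest log2 ratio being 0.44) and 2 lower (C1qb and C1qc, against 2.82%). C1qa, at -0.57 on the log2 scale in monocytes, lay just within 1.5 times and passed it under 8 of 12 alternatives, which would make 3 lower. These C1q values in monocytes have no T-cell level taken off, and with it taken off none would remain lower, as given below. In neutrophils 5 were tested, with 1 higher (C3, against 7.40% of 2811 genes) and 2 lower (C1qa and C1qb, against 10.2%). The latter reached 50 CPM only in the control library, where C1q in neutrophils did not exceed that in T cells, and nothing is read from them. In fibroblasts 3 were tested, with 1 higher (C3, against 7.95% of 3762 genes) and 0 lower (against 8.98%). In cancer cells 0 of the 9 reached 50 CPM, while 0.471% of 3611 genes were higher and 1.05% lower. C1qa (0.700) and C1qc (0.765) missed the count of genes lower by 1.5 times in macrophages.

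Per cell, the median control macrophage held 35.3 C1q UMIs per 10000 (quartiles 11.6 and 63.6, highest 249) and the median ENZ macrophage 18.0 (quartiles 1.21 and 45.6, highest 149). No C1q UMI was found in 11.9% of control and 23.4% of ENZ macrophages. All 3 chains were found together in 36.3% (33.7% to 39.1%) of control and 21.6% (18.9% to 24.4%) of ENZ macrophages after thinning, and in 74.6% and 59.3% without it. Across thinned macrophages of 1 library, the counts of the chains correlated with one another (Pearson r from 0.44 to 0.53 in 1258 control cells and from 0.39 to 0.51 in 890 ENZ cells). Each other pair among the 9 genes had an r of at most 0.16. These values describe cells that share a library and are no test.

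The macrophage gate held cells with monocyte markers, and more so in the ENZ library. Of the macrophages, 426 of 1258 control and 443 of 890 ENZ cells also passed the monocyte list. Summed over its 7 markers, that list stood at 1281 CPM in control and 2351 CPM in ENZ macrophages, with 5 of the 7 higher in the ENZ library. All 7 were above 0 in both. Its most abundant gene was Plac8 in the control (513 CPM, against 475 CPM in ENZ) and Chil3 in the ENZ library (781 CPM, against 86.1 CPM in the control). Plac8 and Ms4a4c (87.1 and 83.6 CPM) were lower in the ENZ library. Chil3 and F13a1 (229 and 513 CPM) gave most of the higher sum. How far Chil3 alone set the number of macrophages that passed the list was not tested. C1q was lower in the ENZ library on both sides of this split. It went from 3452 to 2154 CPM (ratio 0.624, 0.607 to 0.641) in macrophages that passed the monocyte list and from 5110 to 4082 CPM (0.799, 0.783 to 0.815) in those that did not. With the subsets of this split weighted by their UMIs in the control library, a value added after the split was seen, the log2 ratio of C1q was -0.42, against -0.57 without weighting.

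Split by the gating genes Mrc1, for the mannose receptor of tissue macrophages, and Mmp12, for a macrophage elastase, C1q was at 5176 and 3242 CPM in macrophages with Mrc1 but no Mmp12 (596 and 578 cells). It was at 1978 and 891 CPM in those with Mmp12 but no Mrc1 (129 and 81 cells), and at 4357 and 3152 CPM in those with both (533 and 231 cells). The ratios were 0.626 (0.613 to 0.640), 0.450 (0.405 to 0.50) and 0.723 (0.704 to 0.743). Weighting these 3 subsets as in the control library, also added later, gave a log2 ratio of -0.58, and weighting the 6 subsets by Mrc1, Mmp12 and the monocyte list together gave -0.48. Barcodes that passed the macrophage list without passing a gate (336 and 143) had C1q at 1421 and 759 CPM. Over all kept barcodes C1q went from 503 to 198 CPM (0.394, 0.388 to 0.399), a value into which the number of macrophages enters as well as their level. Of the genes that define the gate, Apoe was also lower in ENZ macrophages (6534 and 3919 CPM) and so was Mmp12 (433 and 281 CPM), whereas Mrc1 was higher (608 and 1051 CPM).

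**Figure D3:**
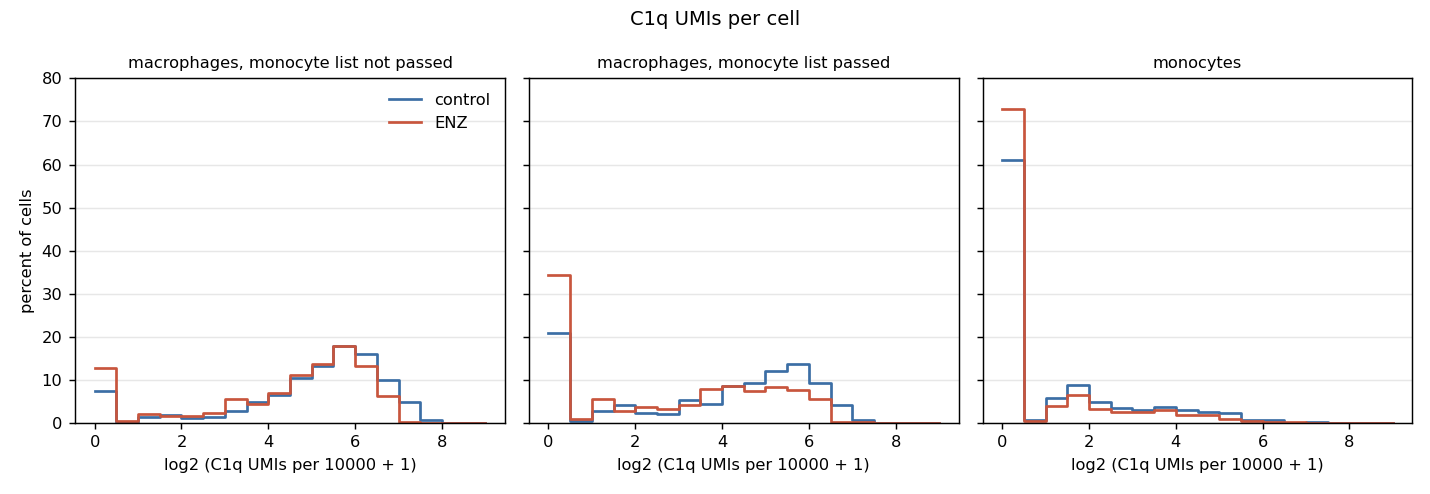
Distribution of C1q UMIs per 10000 UMIs, as log2 of the value plus 1 (x axis), in percent of cells (y axis), for macrophages outside and inside the monocyte list and for monocytes. The leftmost bin, which includes every cell without a C1q UMI, holds 7.33% and 12.8% of control and ENZ macrophages outside the list, 20.9% and 34.3% inside it and 61.0% and 72.9% of monocytes.

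Monocytes showed the same direction of difference for each C1q chain in the uncorrected counts. C1qa was at 136 and 91.6 CPM (ratio 0.673, 0.605 to 0.748), C1qb at 238 and 146 CPM (0.614, 0.566 to 0.667) and C1qc at 103 and 64.1 CPM (0.623, 0.550 to 0.706). A minority of monocytes held any C1q UMI (39.0% and 27.2%): the median monocyte held 0 C1q UMIs in both libraries, and the upper quartile was 2.87 and 1.53 per 10000. The monocyte list moved as well, its 7 markers summing to 5226 and 6438 CPM in monocytes with 5 of the 7 higher in the ENZ library and none at 0. Its most abundant gene was Plac8 in the control (2838 CPM, against 2252 CPM in ENZ) and Chil3 in the ENZ library (2266 CPM, against 627 CPM in the control). Plac8 and Ms4a4c (299 and 248 CPM) were lower in the ENZ library, so that the higher sum rested on Chil3. The part of these differences in the C1q values was not tested. The free RNA of the libraries moved the same way, from 853 to 450 CPM of C1q, and its part in the monocyte values was not tested beyond the subtraction given in the closing section. C1q in T cells, a class that should lack it, went from 234 to 24.3 CPM, against 477 and 302 CPM in monocytes. By chain the T cells had 76.7 and 11.5 CPM (C1qa), 109 and 7.67 CPM (C1qb) and 48.5 and 5.12 CPM (C1qc). With these T-cell levels taken off as background, no C1q chain would remain lower in ENZ monocytes. No interval was computed for this, and whether T cells give the right background was not tested.

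C3, the central component, was the member that was higher in the ENZ library in the most classes. Fibroblasts carried C3 at 194 CPM (172 to 219) in control and 578 CPM (532 to 626) in ENZ cells; the ratio of 2.97 (2.57 to 3.45) rests on 67 and 54 cells. In these cells the 6 endothelial markers summed to 13.9 CPM in control and 65.8 CPM in ENZ, with all 6 higher in the ENZ library, none at 0 in either and Cdh5 the most abundant (4.38 and 17.7 CPM), and their part in the C3 difference was not tested. The 7 fibroblast markers, summing to 35704 and 44017 CPM, were all higher there too. In macrophages it was at 40.7 CPM (37.2 to 44.5) and 106 CPM (98.3 to 114), a ratio of 2.60 (2.32 to 2.93). In neutrophils it was at 90.8 and 166 CPM (1.83, 1.48 to 2.24), and in monocytes at 84.7 and 130 CPM (1.53, 1.37 to 1.71). With free RNA subtracted, estimated at 34.1% of the UMIs of control and 4.33% of those of ENZ neutrophils, the log2 ratio in neutrophils was 0.55, within 1.5 times. Cancer cells had little of it, 1.61 and 4.13 CPM. T cells had 5.96 and 4.80 CPM, and the interval of their ratio, 0.367 to 1.77, spanned 1. The free RNA held C3 at 23.8 and 36.7 CPM, below the level in macrophages, monocytes, neutrophils and fibroblasts of the same library. After thinning, a C3 UMI was found in 3.97% (2.96% to 5.21%) of control and 8.99% (7.19% to 11.1%) of ENZ macrophages, against 0.716% and 0.350% of T cells. Without thinning the shares were 23.9% and 37.4% of macrophages and 1.91% and 2.45% of T cells.

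Within macrophages, C3 was higher in the ENZ library in each subset. It was at 44.5 and 122 CPM in macrophages that passed the monocyte list (2.73, 2.30 to 3.26) and at 38.6 and 87.7 CPM in the others (2.27, 1.92 to 2.69). With Mrc1 but no Mmp12 the ratio was 2.0 (1.71 to 2.35), with both 3.11 (2.54 to 3.81) and with Mmp12 but no Mrc1 3.75 (2.51 to 5.70), the last from 38 and 75 UMIs. The 7 fibroblast markers summed to 111 CPM in control and 83.3 CPM in ENZ macrophages, with none of the 7 higher in the ENZ library, Col3a1 the most abundant (51.8 and 43.6 CPM) and none at 0. The gene C3 (ENSMUSG00000024164; chromosome 17, 57203970 to 57228136, minus strand) overlaps the microRNA gene Mir6978 on its own strand. Reads of the shared stretch cannot be told apart by position, and the part of this overlap in the C3 counts was not tested.

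**Figure D4:**
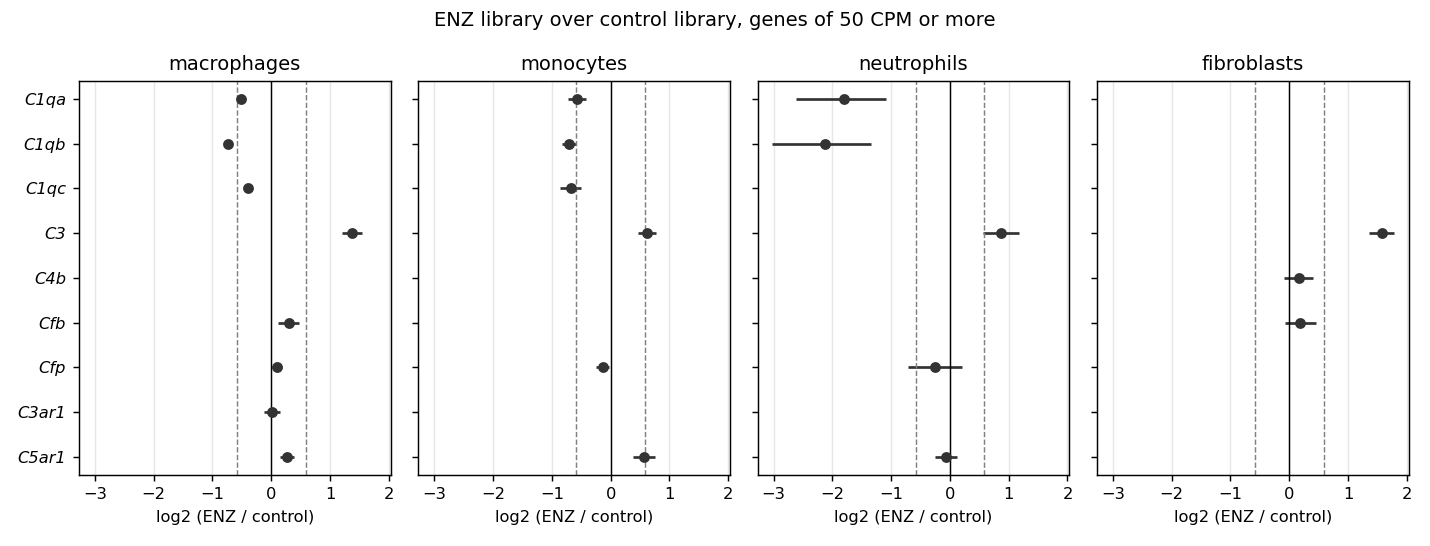
log2 ratio of ENZ over control (x axis) with its 95% interval for each gene that reached 50 CPM in either library, in 4 classes; dashed lines mark 1.5 times in either direction. The points of C3 lie to the right of the upper line in all 4 classes, in monocytes (0.62) only just, and the C1q genes lie to the left of 0 wherever they are shown.

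C4b and Cfb, which lie on chromosome 17 within the major histocompatibility region, had their highest levels in fibroblasts. C4b, the classical path component cleaved after C1, was at 222 CPM (198 to 248) in control and 248 CPM (218 to 281) in ENZ fibroblasts, and the interval of the ratio spanned 1 (1.12, 0.942 to 1.32). In macrophages it was at 20.9 and 25.1 CPM (1.20, 0.983 to 1.47), under the minimum for testing. That value hid opposite directions, since C4b went from 31.4 to 21.4 CPM (0.682, 0.509 to 0.908) in macrophages that passed the monocyte list and from 14.8 to 29.4 CPM (1.98, 1.49 to 2.64) in the others. These rest on 77 to 137 UMIs each, and the difference was not tested. The share of cells with a C4b UMI did not follow the CPM throughout. In macrophages that passed the list it was 8.69% and 9.93% without thinning, but 1.88% and 0.903% after it. In the others it was 6.61% and 10.1% without thinning and 0.721% and 3.36% after it. Reads of C4b can be shared with its near-identical copy C4a, listed at 0.167 and 0.150 CPM in macrophages, so its level is uncertain.

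Cfb, for factor B, was at 182 and 208 CPM in fibroblasts (1.14, 0.946 to 1.38). In macrophages it was at 51.3 CPM (47.4 to 55.6) and 63.0 CPM (57.1 to 69.3), a ratio of 1.23 (1.08 to 1.39), and in monocytes at 29.4 and 43.4 CPM (1.48, 1.22 to 1.79). Both lay within 1.5 times. Cfb was near 0 in cancer cells (1.30 and 1.20 CPM). The gene (ENSMUSG00000090231, 34856374 to 34862518, minus strand) overlaps Gm20547 and Mir6972 on the same strand, which makes its counts uncertain too.

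Cfp, for properdin, was spread over macrophages and monocytes and differed little between the libraries. It was at 268 CPM (259 to 277) in control and 287 CPM (274 to 300) in ENZ macrophages (1.07, 1.01 to 1.13), and at 218 CPM (206 to 230) and 199 CPM (189 to 211) in monocytes (0.916, 0.848 to 0.989). The macrophage value, 0.10 on the log2 scale, was near the median of all genes tested there (0.09). Neutrophils had 66.4 and 56.0 CPM, and the free RNA 68.4 and 52.7 CPM. Thinned neutrophils had a Cfp UMI in 6.73% (5.36% to 8.32%) and 5.24% (3.31% to 7.82%) of cells (12.9% and 9.52% unthinned), above the T cells of their library. Thinned macrophages had a Cfp UMI in 23.0% (20.7% to 25.4%) and 23.3% (20.5% to 26.2%) of cells, against 0.955% and 1.22% of T cells, and without thinning in 78.3% and 76.5%, against 5.97% and 2.80%. Of all its UMIs, macrophages held 43.2% and 42.5%, and monocytes 18.2% and 28.9%.

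The anaphylatoxin receptors divided the myeloid classes. C3ar1, for the C3a receptor, was at 107 CPM (101 to 113) in control and 108 CPM (100 to 116) in ENZ macrophages (1.01, 0.922 to 1.11) and at 42.1 and 43.4 CPM in monocytes (1.03, 0.868 to 1.22). Control neutrophils had 6.56 CPM and ENZ neutrophils 0 UMIs, with an exact upper bound of 4.05 CPM (3 UMIs would be 3.29 CPM). C5ar1, for the C5a receptor, was at 354 CPM (332 to 377) in control and 338 CPM (301 to 378) in ENZ neutrophils (0.955, 0.837 to 1.09). It was at 112 CPM (106 to 118) and 135 CPM (126 to 144) in macrophages (1.21, 1.11 to 1.31) and at 61.4 and 91.3 CPM in monocytes (1.49, 1.31 to 1.69), just within 1.5 times, a line it passed under 4 of 12 alternatives. Thinned neutrophils had a C5ar1 UMI in 28.2% and 27.4% of cells (46.7% and 45.0% unthinned), whereas 0 of 419 and 0 of 572 thinned T cells did, with exact upper bounds of 0.877% and 0.643%. Macrophages held 36.0% and 38.6% of the C5ar1 UMIs, monocytes 10.3% and 25.7% and neutrophils 26.1% and 13.3%, while neutrophils went from 1174 to 420 cells.

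Beyond these 9, 46 other complement genes were listed, and 18 of them reached 50 CPM in a class. In macrophages 9 were tested and all 9 lay within 1.5 times, as did most of the 3459 genes tested there (4.65% were higher and 3.76% lower). The highest ratios were those of Itgam, an integrin chain of complement receptor 3 (340 and 509 CPM, 0.58 on the log2 scale, ratio interval 1.43 to 1.57), of Fcna, a ficolin of the lectin path (74.0 and 96.5 CPM, 1.31, 1.18 to 1.45), and of Cd93 (110 and 128 CPM, 1.17, 1.07 to 1.27). The lowest were those of Itgax, an integrin chain of complement receptor 4 (79.3 and 54.4 CPM, 0.686, 0.606 to 0.775), of C1qbp (0.919, 0.826 to 1.02) and of the chaperone gene Calr (0.953, 0.914 to 0.994). None of the 7 genes of the terminal path and not Cfd, the alternative path protease, reached 50 CPM in any class.

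The proteases that join C1q in the C1 complex were found elsewhere. C1ra was at 156 and 204 CPM in fibroblasts and at 7.09 and 8.12 CPM in macrophages, and C1s1 at 224 and 275 CPM in fibroblasts and 0.668 and 0.752 CPM in macrophages. C2, the protease partner of C4, was at 85.4 and 64.0 CPM in fibroblasts and 2.50 and 1.5 CPM in macrophages. The C1 inhibitor gene Serping1 was at 926 and 1508 CPM in fibroblasts and 2.09 and 1.65 CPM in macrophages. In these cells the transcripts of C1q and those of its proteases and inhibitor were thus highest in different classes.

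Genes with the most similar pattern were sought over 8 classes in 2 libraries (16 points, Pearson correlation of log2(CPM + 10), 6473 genes). For the sum of C1q they were Apoe (r = 0.964), Mrc1 (0.951), Folr2 (0.949), Ms4a7 (0.947) and Mmp12 (0.943), of which Apoe, Mrc1, Ms4a7 and Mmp12 were gate markers. For C3 they were Dram1 (0.958), Fap (0.919), Dmkn (0.919), Irak3 (0.914) and Arhgap24 (0.910). For Cfp they were Cybb (0.986), Eepd1 (0.983), Cd68 (0.975, also a gate marker), Gm21188 (0.974) and Rp2 (0.974). For C5ar1 they were Ccr1 (0.994), Cyp4f18 (0.994), Rab20 (0.987), Tarm1 (0.983) and Slc11a1 (0.983). Points of 1 class share cells of like kind and points of 1 library share its free RNA, so that these are descriptions.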

How the data were processed

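The deposited values are unfiltered raw counts of UMIs for each gene in each barcode; per the file headers they come from Cell Ranger 7.2.0, whereas the submitters' processing notes name Cell Ranger 2.1.1 and mm10. Whether intronic reads were counted is not given in the sources used here. Barcodes with at least 1000 UMIs and at most 20% mitochondrial UMIs were kept. Classes were gated from marker lists whose minimum counts were set from the markers alone, without reading the 9 genes; barcodes of more than 1 lineage were left out, which stood in for a doublet caller, and the macrophage gate went before the monocyte gate. UMIs were summed over the cells of each class in a library. Poisson intervals (exact) were given for CPM, conditional binomial ones (exact) for ratios and Clopper-Pearson ones for shares, at a level of 95%. Shares were taken after thinning each cell to 1000 UMIs. Named genes are the 9 members, the other complement genes at the 3 highest and 3 lowest macrophage ratios, those given for their fibroblast level (C1ra, C1s1, C2 and Serping1, chosen after their values were seen) and the 5 genes most like C1q, C3, Cfp and C5ar1. The members and lists were chosen with earlier results of these data known. Positions are from GENCODE M21 and promoters from RefSeq. The scripts were tested on simulated data and ran in Python 3.11.15 with pandas 2.3.3, scipy 1.17.1, numpy 2.4.6 and matplotlib 3.10.9. The alternatives tried are in the closing section.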

Additional observations from a re-analysis of the deposited data

Results flagged for a closer look

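Cfp differed in direction between classes: the ratio of ENZ over control was 1.07 in macrophages and 1.14 in macrophages outside the monocyte list, but 0.916 in monocytes, each with an interval that excluded 1. The macrophage log2 ratio of 0.10 was near the median of all genes tested in that class (0.09) and became 0.01 with median-of-ratios scaling, so that it is not a rise relative to other genes, while that of monocytes was -0.16 with that scaling. The difference between the classes was not tested, since there was 1 library per condition, and all 3 ratios lay within 1.5 times.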

How the results depend on the processing

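The log2 ratio of C1q in macrophages was -0.57 and stayed below 0 under all 15 alternatives, from -0.68 to -0.42. It left its counting interval with the macrophage gate without supporting markers (-0.59), barcodes of 2 lineages kept (-0.52), barcodes over 3 times the median UMIs left out (-0.61), the mean of each cell's CPM (-0.68), free RNA subtracted (-0.60), a CPM denominator that left out genes of mitochondria, ribosomal proteins and rRNA (-0.54), median-of-ratios scaling (-0.66) and macrophage subsets weighted as in the control, by the monocyte list alone (-0.42) or with Mrc1 and Mmp12 (-0.48), both added after seeing the data; by Mrc1 and Mmp12 alone, also added, it was -0.58. The count of members higher in ENZ macrophages was 1 (C3) under every alternative, a fold of 2 included. The count of members lower was 1 (C1qb) except for 2 (C1qa and C1qb) with median-of-ratios scaling and 0 with a fold of 2.

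Over 22 ratios of single members by class and 286 alternative values, 251 stayed within the counting interval, 35 moved out of it, 276 kept their sign and 0 that were past 1.5 times turned their direction. C3 ranged from 1.27 to 1.46 on the log2 scale in macrophages and from 1.07 to 1.72 in fibroblasts. In monocytes (0.62) it fell within 1.5 times under 4 alternatives, the mean of each cell's CPM (0.44), the macrophage gate without supporting markers (0.52), and barcodes over 3 times the median UMIs left out and median-of-ratios scaling (0.58 each), and in neutrophils (0.87) with free RNA subtracted (0.55). In monocytes C1qa (-0.57) passed 1.5 times under 8 of 12 alternatives (range of all 12, -0.85 to -0.55) and C5ar1 (0.57) under 4 of 12 (0.41 to 0.63). The sign depended on the setting for C3ar1 in macrophages (-0.08 to 0.10), Cfp in neutrophils (-0.32 to 0.28), C5ar1 in neutrophils (-0.47 to 0.03) and C4b in fibroblasts (-0.21 to 0.40). The estimate of free RNA, from marker genes of absent cell types, was 4.50% of UMIs in control and 2.02% in ENZ macrophages, 4.11% and 7.26% in monocytes and 34.1% and 4.33% in neutrophils. With it subtracted, C1q in monocytes stayed lower in the ENZ library for each chain. The log2 ratios were -0.60, -0.68 and -0.73 for C1qa, C1qb and C1qc. C1qa and C1qb in neutrophils gave no ratio, since a level reached 0. A subtraction of the T-cell level of C1q, 234 CPM in control and 24.3 CPM in ENZ, was not run. By the levels given above, it would leave no C1q chain lower in ENZ monocytes, and no interval was computed for this. With a pseudocount of 1 CPM, 4 of the 5 genes most like C1q, 4 for C3, 3 for Cfp and 3 for C5ar1 were shared. No paired analysis was possible because a condition held a single library. Few UMIs limit C4b in macrophages, and the small number of cells (67 and 54) limits the values in fibroblasts.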
